A study of Drosophila melanogaster with 4 samples.

Results

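The array labelled TORC neuronal rescue was set against the array labelled TORC mutant, as the ratio of the deposited signals of each probe set. By their labels, both arrays carried RNA from heads of male Drosophila melanogaster fasted for 24 h. A probe set is the group of short probes on the array that reports 1 transcript. Signals below 14 were raised to 14, and ratios were taken for the 13646 probe sets, of 18952 on the array, that the platform annotation pairs with 1 gene symbol. Among these, 6296 probe sets (46.1%), which stood for 5933 genes, had a signal of 50 or more on both arrays and are called bright here. Each gene was read from its brightest probe set. A further 1013 probe sets (7.42%) had 50 or more in the neuronal rescue and were below 14 in the mutant, and 10 (0.0733%) were the other way round. Both of these classes are described apart from the bright genes. The remainder were 294 probe sets between 14 and 50 in the mutant and bright in the rescue, 444 between 14 and 50 in the rescue and bright in the mutant, and 5589 below 50 on both.

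The series held 4 arrays, and the pair compared here was joined by a wild-type (WT) control and by the control of the rescue, each on 1 array. Where 4 signals of a gene are listed, they are in the order WT control, mutant, rescue control, neuronal rescue. All 4 groups were labelled as fasted male heads, and the labels name no other treatment and no age. They also do not give the mutant allele, the driver and transgene of the neuronal rescue, the genotype of the rescue control, the clone or line, or how many flies were pooled. With 1 array per group there was no replicate error, and no test, p-value or standard error is given. Calls rest on size alone: signals 2-fold or more apart, so an absolute log2 ratio of at least 1. The one measure of error within the arrays was the spread between probe sets of 1 gene, a robust SD of 0.32 log2 units over the 240 genes with exactly 2 bright probe sets. That spread leaves out variation between flies and between RNA preparations.

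TORC, now named Crtc, is a coactivator of the transcription factor CREB. Salt-inducible kinases hold it in the cytoplasm by phosphorylation, and cAMP and calcium signals, the latter through the phosphatase calcineurin, free it to enter the nucleus and switch on CREB target genes. In flies it is known for work in neurons during fasting, and flies that lack it are sensitive to starvation and to oxidative stress. A neuronal rescue puts the gene back in neurons alone, while a head also holds eye, glia, fat body, oenocytes, muscle and cuticle-making epidermis.

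The arrays did not stand alike before any gene was compared. Signals had been scaled to a common 2% trimmed mean of 150. The median signal was 36.6, 19.8, 20.6 and 37.2, so the WT control and the rescue stood together above the other pair. The share of probe sets with 1 symbol below 14 was 35.2% in the mutant and 23.1% in the neuronal rescue. Transcripts of Bacillus added to the RNA had geometric mean signals over 12 probe sets of 77.3, 76.8, 351 and 261. For these the WT control and the mutant stood together, below the rescue control and the rescue. Act5C probe sets at the 3′ and 5′ ends, whose ratio is a sign of RNA integrity and labelling, gave ratios of 3.86, 2.68, 3.77 and 3.7. For eIF-4a they were 4.03, 3.12, 3.44 and 4.19, and GAPDH had 2.02, 1.57, 1.52 and 1.9, so the mutant was lowest for Act5C and eIF-4a and the rescue control for GAPDH. In keeping with the labelled tissue, all 24 measured photoreceptor genes were bright on both arrays, while 11 more names on that list were not matched to a measured gene. Testis markers, which are not head genes, were also present: their summed signal over 37 genes was 9750, 285, 400 and 18565. These differences run alongside every ratio below, and their part in the ratios was not tested.

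Crtc itself gave signals of 203.1, 3.8, 6.7 and 37.4 from its only probe set. It was thus below the floor in the mutant and above it in the rescue. The rescue signal was 2.67-fold over the floor of 14, a lower bound on its fold over the mutant. The WT control lay 5.43-fold above the rescue, and the gene fell in neither of the described classes because its rescue signal was under 50. Of the 20 measured genes nearest to Crtc on its chromosome, 10 on each side, 9 were bright and 0 were past 2-fold. Their log2 ratios ran from −0.97 for Pep, which encodes a protein on ecdysone puffs, to 0.13 for Vps60, a member of the endosomal sorting machinery. Another 3 of these 20 neighbours, Jon74E, Adgf-A2 and CG32181, were below 14 in the mutant and bright in the rescue, a class that held 7.42% of all probe sets with 1 symbol.

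Among the bright genes, 89 of 5933 (1.5%) were 2-fold or more higher in the neuronal rescue, 194 (3.27%) were 2-fold or more lower, and 5650 lay within 2-fold. The median log2 ratio was −0.14 and 64.3% of genes were below 0, so the list medians below are read against −0.14 and not against 0. From the 5th to the 95th percentile the log2 ratios ran from −0.88 to 0.60, and 80.3% of genes were within 1.5-fold. The spread was similar at all signal levels, with robust SDs between 0.32 and 0.45 log2 units over 5 bands of signal. Where a gene had several bright probe sets, they often split across the threshold: of 54 such genes with at least 1 probe set past 2-fold, 12 had all of them past it in the same direction and 0 had them past it in opposite directions. Centring on the bright median moved all log2 ratios up by 0.16 and turned the split of 93 higher and 227 lower probe sets into 124 and 132. Centring on the photoreceptor, synaptic and glia lists moved them up by 0.41 and gave 308 and 54, so the balance between the directions depended on what was taken as level.

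**Figure D1:**
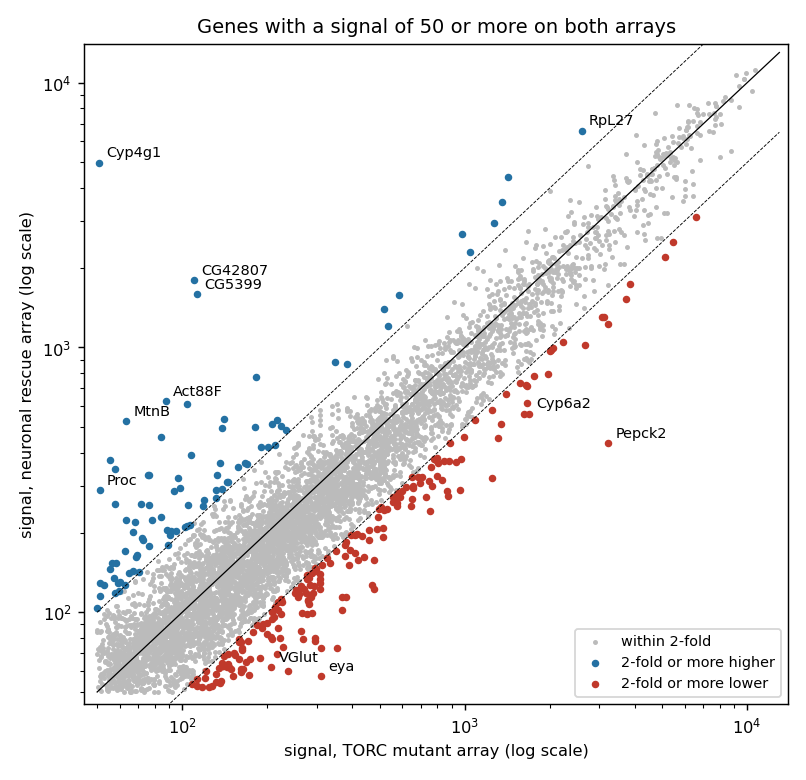
Signal on the TORC mutant array (x axis, log scale) against the neuronal rescue array (y axis, log scale) for the 5933 bright genes, 1 point a gene. The solid line marks equal signals and the dashed lines 2-fold; 89 genes lie above the upper dashed line, led by Cyp4g1, and 194 below the lower one, led by Pepck2.

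The highest ratio belonged to Cyp4g1, the oenocyte cytochrome P450 that makes cuticular hydrocarbons. Its signals were 3795.9, 50.7, 411.7 and 4984.5, a log2 ratio of 6.62 or 98.3-fold. The mutant value stood just inside the limit of 50, so the gene would have been in no class at a slightly lower mutant signal. MtnB encodes a metallothionein, a small metal-binding protein, and gave 80.4, 63.3, 105.8 and 526.2. Only the neuronal rescue was high for MtnB, by 8.31-fold over the mutant. Proc encodes the neuropeptide proctolin, and its signals were 136, 51, 112.3 and 288.4, with the mutant lowest and the rescue highest (5.65-fold). Act88F, the actin of indirect flight muscle, had 3116.1, 87.4, 6806.6 and 626.5. For Act88F the mutant was the low array, and the rescue, 7.17-fold above it, remained under the WT control and the rescue control.

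Other genes in the top 15 differed in where the controls stood. Rab3-GAP, a regulator of the synaptic vesicle GTPase Rab3, had signals of 353.7, 103.6, 75.2 and 612.9, high in the WT control and the rescue and low in the mutant and the rescue control. The same arrays were high for path, an amino acid transporter, with 1669.8, 140.5, 167.2 and 538.2. The germ-line gene bol, which acts in male meiosis and is on the testis list, also shared that order at 233.3, 76.5, 70.1 and 329.8, and its other probe sets were not bright. CG9119 was at 789.9, 182.5, 275.2 and 771.7. In contrast, the rescue control and the rescue were the high arrays for CG42807, at 148.6, 110.1, 625.9 and 1793.7. CG5399 gave 364.6, 113.1, 884 and 1587.4, with the same pair on top. The noncoding RNA lncRNA:CR32368 was at 44.1, 57.9, 319.7 and 346.5, low in both the WT control and the mutant. For CG31342 the mutant was the 1 low array, at 75.5 against 331.3 to 342.9 elsewhere. CG4377, CG32523 and CG8043 completed the 15, with rescue over mutant folds of 6.77, 5.43 and 4.4.

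The lowest ratio belonged to Pepck2, a phosphoenolpyruvate carboxykinase, the enzyme class that starts sugar synthesis from small acids. Its signals were 49, 3225.8, 1248.7 and 434.7, so that the rescue was 7.42-fold under the mutant. The mutant was the highest array for Pepck2 and the rescue still exceeded the WT control. eya, a cofactor of eye development, had 136.9, 309.9, 269.2 and 57.5, and the rescue was the lowest array by 5.39-fold against the mutant. The lowest 15 also held dlp, Hs3st-A and dpy, of the cell surface and matrix. The glypican gene dlp was at 185.7, 476, 222.1 and 122.3. Hs3st-A, which sulfates heparan chains, was at 273.3, 471, 238.7 and 127.2. The matrix protein gene dpy was at 332.9, 295.7, 123.6 and 78.1. In dlp and Hs3st-A the mutant was high and the rescue low, whereas dpy was as high in the WT control as in the mutant.

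The fascin gene sn, which bundles actin, had 624.6, 1248.1, 592.8 and 322.4, with the mutant above and the rescue below the controls. VGlut, the vesicular glutamate transporter of motor and other glutamatergic neurons, was at 211.7, 206.9, 92.1 and 61.9. For VGlut the WT control and the mutant were level, and both rescue arrays were lower. The splicing factor gene mbl was at 230.5, 237.5, 106.8 and 59.9, again with the WT control and the mutant level. Probe sets disagreed for gpp, the histone H3 methyltransferase of the Dot1 type: the brightest gave a log2 ratio of −1.88, and others gave −0.38 and 0.31. ftz-f1, a nuclear receptor gene, gave −1.75 and −0.91 from different probe sets, and the proton channel gene OtopLa gave −1.74 and −1.59. CG5172, Dora, CG13056 and prom, a prominin gene, made up the rest, with the rescue between 3.34-fold and 4.79-fold under the mutant.

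**Figure D2:**
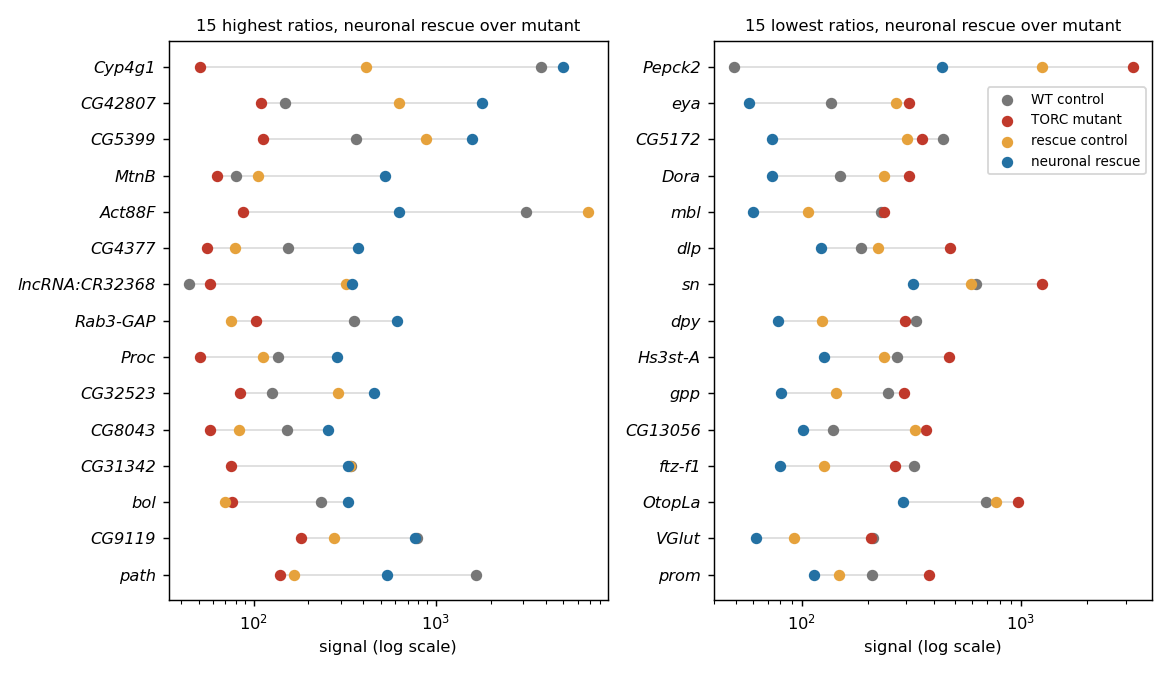
Signal (x axis, log scale) of the 15 genes with the highest and the 15 with the lowest ratio of neuronal rescue over mutant, 1 row a gene and 1 point an array, coloured by group. The neuronal rescue is the highest array for the genes on the left, apart from Act88F, CG31342, CG9119 and path, and the lowest for those on the right, apart from Pepck2.

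The CREB coactivator pathway was represented by 22 measured genes, of which 19 were bright. None was 2-fold higher and 2 were 2-fold lower, with a median log2 ratio of −0.38 beside −0.14 for all bright genes. The lower ones were rg, an anchor for protein kinase A, at 379.9, 376.9, 229.9 and 163.5 (−1.20), and Ac78C, an adenylate cyclase, at 90.7, 112.5, 99.3 and 52.9 (−1.09). The cAMP phosphodiesterase gene dnc was at 354.2, 345.5, 333.9 and 177.6, a log2 ratio of −0.96 that missed the threshold. The rescue was the lowest array for rg, Ac78C and dnc. Sik2, a kinase that holds Crtc in the cytoplasm, gave −0.74, and the calcium-responsive cyclase gene rut gave −0.72. The calcineurin subunit genes CanA1 and Pp2B-14D gave 0.20 and −0.68, and CrebB, the CREB gene itself, was below 50 on at least 1 of the arrays. Genes switched on by neuronal activity or stress, 9 bright of 12, had 0 past 2-fold in either direction and a median of −0.08. In that list cbt, a zinc finger factor, had the highest log2 ratio at 0.95 and kay, the fly Fos, gave 0.74.

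Synaptic and neuronal marker genes lay on the low side. Of 28 measured, 25 were bright, 0 were 2-fold higher, 5 were 2-fold lower and 23 were below 0, with a median of −0.58. After VGlut, the lowest was the calcium sensor gene Frq1 at 224.6, 289.6, 206.9 and 118. The RNA-binding neuronal gene fne followed at 458.1, 650.1, 380.8 and 267.4, and the microtubule-associated gene futsch at 675.7, 681.5, 430.8 and 324.8. In each of these the rescue was the lowest array and the mutant the highest. Rim, a scaffold of the active zone, gave −1.03 from its brightest probe set and 0.47 from a dimmer one. The vesicular GABA transporter gene VGAT was at −0.97, the pan-neuronal marker elav at −0.73, and the t-SNARE gene Snap25 was highest at 0.22. In head RNA, fewer cells of a type and less RNA per cell cannot be told apart.

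Voltage-gated ion channel genes, 15 bright of 24, had 0 higher, 3 lower and a median of −0.41. The sodium channel auxiliary gene Teh3 had signals of 219.6, 221.1, 101.2 and 79.8 (−1.47). The potassium channel gene Sh gave −1.06 from its brightest probe set and −0.92, −0.76 and −0.26 from others, and its beta subunit gene Hk gave −1.09 and −0.77. Monoamine genes, 13 bright of 18, had 0 higher, 1 lower and a median of −0.30. The lower one was Vmat, the vesicular monoamine transporter, with −1.39, −0.70 and −0.59 from its probe sets. Sh, Hk and Vmat thus passed 2-fold on their brightest probe set alone.

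Neuropeptide genes stood on the other side of the overall median. Of 33 measured, 24 were bright, 1 was 2-fold higher and 0 lower, with a median of 0.09. Proc, given above, was the higher one. Pdf, the peptide of clock neurons, was at 434.7, 219.9, 187.1 and 394.5, a log2 ratio of 0.84 with the WT control and the rescue high. Nplp1 was at 0.49 and NPF, a feeding peptide, at 0.38, while Mip, sNPF and Ilp2, an insulin-like peptide, were at −0.60, −0.58 and −0.53. Insulin, adipokinetic hormone and FOXO pathway genes, 16 bright of 21, had 0 past 2-fold in either direction and a median of −0.12. Their log2 ratios ran from −0.63 for S6k, a growth kinase, to 0.54 for foxo, the transcription factor that insulin restrains.

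Clock genes, 18 bright of 19, had 0 higher, 1 lower and a median of −0.25. tim, the partner of per in the feedback loop, had 829.3, 1253.3, 805.3 and 583 on its brightest probe set, and its probe sets gave −1.10 and −1.97. per was at −0.62, the repressor gene cwo at −0.85 and Clk at −0.08. The rescue was the lowest of the arrays for tim and the mutant the highest. The labels give no hour of collection.

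Eye genes were mostly below 0. Photoreceptor genes had 0 higher, 2 lower and a median of −0.33 over all 24 measured. The diacylglycerol kinase gene rdgA was at 862, 875.9, 466.5 and 274.1 on its brightest probe set (−1.68), with −0.90 and −0.35 from others. The phosphatidylinositol transfer gene rdgB was at 1133, 1626, 894.4 and 562.1 (−1.53). The channel genes trp and trpl were at −0.42 and 0.04, and the arrestin genes Arr1 and Arr2 at −0.02 and 0.06, all within 2-fold. Eye pigment genes, 18 bright of 21, had 0 higher, 4 lower and a median of −0.50. Over the mutant, the medians of these genes were −0.34 in the WT control and −0.18 in the rescue control. Their lowest was se, an enzyme of drosopterin synthesis, at 1390, 1311.4, 811.5 and 457.1 (−1.52). The other lower ones were Rab32 and g, of pigment granule traffic, and bw, a pigment precursor transporter, at −1.26, −1.16 and −1.14. Glial markers, 17 bright of 18, had 0 past 2-fold and a median of −0.36, with the glial identity factor repo at −0.50 and the blood-brain barrier receptor gene moody lowest at −0.81.

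Cuticle protein genes had the lowest median of the lists with 5 or more bright members. Of 105 measured, 18 were bright, all 18 were below 0, 4 were 2-fold lower and the median was −0.77. Over the mutant, the WT control had a median of −0.47 for the 18 and the rescue control −0.25. Cpr62Bc was at 649.8, 1349.5, 1098.8 and 514.3, and Cpr49Ae at 2302, 3224.7, 1943.4 and 1227.2, both with a log2 ratio of −1.39. Cpr73D and Cpr62Bb gave −1.27 and −1.14. In these genes the mutant was the highest array and the rescue the lowest. Under both centrings and quantile normalization the cuticle and eye pigment medians stayed below 0. In the centring on head lists, cuticle was at −0.37, eye pigment at −0.09 and the CREB list at 0.02. Centring adds the same shift to every log2 ratio, so the centred medians follow from the uncentred ones and are no separate test. The photoreceptor, synaptic and glia lists define the centring on head lists, so their medians under it show nothing further.

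**Figure D3:**
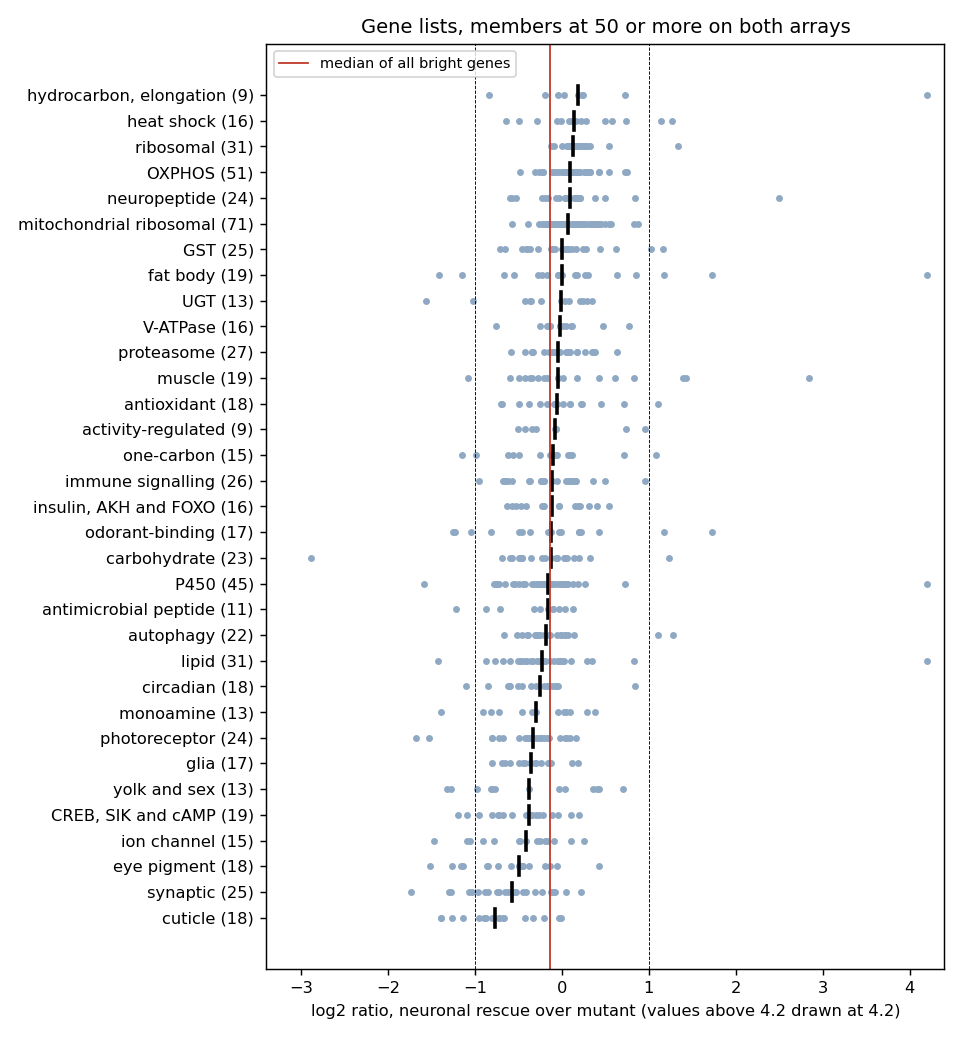
Log2 ratio of neuronal rescue over mutant (x axis) for bright members of each list with 5 or more of them, 1 row a list with the number of bright members in brackets and 1 point a gene. Black bars are list medians, from −0.77 for cuticle to 0.18 for hydrocarbon and elongation genes, the red line is the median of all bright genes (−0.14) and dashed lines mark 2-fold; Cyp4g1 is on 4 of the lists.

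Among all bright genes 1.5% were called higher and 3.27% lower, and the metabolic lists are read beside these shares. Carbohydrate genes, 23 bright of 29, had 1 higher, 1 lower and a median of −0.13. Besides Pepck2, the called gene was the phosphoglycerate mutase gene Pglym78 at 34, 57.4, 194.5 and 135 (1.23). Most glycolytic enzymes lay within 2-fold, with Hex-A, a hexokinase, at −0.69 and Ald1, an aldolase, at −0.58. Below 14 in the mutant and bright in the rescue were 2 more carbohydrate genes, a class with 7.42% of all probe sets with 1 symbol. These were tobi at 549.8, 3.3, 17 and 135, and sut4 at 61.4, 3, 1.1 and 97.9. Lipid genes, 31 bright of 38, had 1 higher, 1 lower and a median of −0.23. The lower one was Lsd-1, a perilipin on lipid droplets, at 406, 1658.3, 1369.6 and 616.5 (−1.43), and the higher one was Cyp4g1. For Lsd-1 the mutant and the rescue control were high and the WT control and the rescue low.

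Hydrocarbon and fatty acid elongation genes, 9 bright of 20, had 1 higher, 0 lower and a median of 0.18. That median is open to the choice of probe sets, since the mean over probe sets of a gene brought it to 0.02. Apart from Cyp4g1 the bright members were within 2-fold, from CG31522, an elongase-like gene, at −0.84 to spidey, a ketoacyl reductase gene of oenocytes, at 0.73. Another 3 members were below 14 in the mutant and bright in the rescue, as were 7.42% of all probe sets with 1 symbol. The fatty acid synthase gene FASN3 was among the 3 members at 118.2, 4.9, 12.3 and 314.1, as was FASN2 at 52, 0.5, 3.1 and 98.7. FASN2 and FASN3 were thus under the floor of 14 on the mutant and rescue control arrays. The summed signal of the testis genes below was also low on these arrays. Cyp4g1 differed, with 50.7 for the mutant against 411.7 for the rescue control. Spidey, at 308.7 and 480.2, was low on neither.

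Fat body genes, 19 bright of 21, had 3 higher, 2 lower and a median of −0.00. The carrier gene Obp99a was at 128.6, 76.6, 4.2 and 254.1, and Obp99b at 351.9, 533.3, 902.3 and 1203.7. The lower ones were fit, a satiety peptide gene of the fat body, at 69.1, 264.5, 151.4 and 99.7, and Gnmt. Gnmt, which uses up S-adenosylmethionine, was at 331.3, 3839.7, 3727.1 and 1733.8 (−1.15). The rescue thus lay between the WT control and the mutant for both fit and Gnmt. Of 15 one-carbon genes, all bright, 1 was higher, 1 lower and the median was −0.10. Sardh, the sarcosine dehydrogenase that takes the product of Gnmt, was at 329.8, 138.3, 155 and 292.6 (1.08). Ahcy, which hydrolyses S-adenosylhomocysteine, was at −0.56.

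Stress defence lists are given beside the shares of all bright genes called, 1.5% higher and 3.27% lower. Antioxidant genes, 18 bright of 25, had 1 higher, 0 lower and a median of −0.06. The higher one was cnc, the fly Nrf2 that governs this class, at 702.4, 145.1, 268 and 310.4 (1.10). The catalase gene Cat was at −0.38 and maf-S, the partner of cnc, at 0.45. Another 3 antioxidant genes were below 14 in the mutant and bright in the rescue, as were 7.42% of all probe sets with 1 symbol. Glutathione S-transferases, 25 bright of 34, had 2 higher, 0 lower and a median of 0.00. GstD9 was at 341, 157.4, 271.8 and 352.2, and GstE11 at 155.1, 89, 230.1 and 179.9, so the mutant was the lowest array for each. Cytochrome P450 genes, 45 bright of 85, had 1 higher, 1 lower and a median of −0.16. The lower one was Cyp6a2, a detoxifying enzyme gene, at 145.6, 1695.6, 1229.9 and 562.1 (−1.59). UDP-glycosyltransferases, 13 bright of 35, had 0 higher, 2 lower and a median of −0.01, and the lower ones were Ugt37A3 at −1.57 and Ugt49C1 at −1.02.

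Heat shock genes, 16 bright of 21, had 2 higher, 0 lower and a median of 0.14. Another 4 were below 14 in the mutant and bright in the rescue, a class with 7.42% of all probe sets with 1 symbol. The small chaperone genes Hsp27 and Hsp26 were the higher ones, at 94, 69, 139.6 and 164.9 and at 151.4, 131.4, 344.7 and 289. For both, the rescue control and the rescue were high and the WT control and the mutant low. Autophagy genes, 22 bright of 24, had 2 higher, 0 lower and a median of −0.18. Atg12 and Atg16, parts of the conjugation machinery of the autophagosome, gave 1.28 and 1.11, and the mutant was the lowest array for each.

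Immune genes were close to the overall median. Antimicrobial peptide genes, 11 bright of 19, had 0 higher, 1 lower and a median of −0.16. The lower one was BomT3, a Bomanin, at 4588.7, 5097.5, 3975.2 and 2190.9 (−1.22), and the defensin gene Def was at −0.87. Outside the bright set, edin was at 48.3, 12.1, 144.9 and 136.6 and AttD at 70.1, 43, 222.1 and 203.2. Both were higher in the rescue than in the mutant, while Drsl4 and CecB, also outside it, gave −0.92 and −0.20. The list left out 3 of the 8 bright Bomanin genes, BomS4, BomS5 and BomS6, which are given here after their values were seen. BomS4 was at 2270.1, 1046.3, 2918.3 and 2303.2, 2-fold higher in the rescue at 1.14, and BomS5 and BomS6 gave 0.96 and 0.55. Bomanin genes thus lay on both sides, with 1 of the 8 called higher and 1 lower. Toll and Imd pathway genes, 26 bright of 30, had 0 past 2-fold and a median of −0.12, between −0.95 for Tl, the Toll receptor, and 0.96 for PGRP-SC2, an amidase that degrades peptidoglycan. Turandot and JAK-STAT genes had 4 bright of 12, with 0 of these past 2-fold. TotC, a secreted stress peptide gene of that list, lay outside the bright set because its rescue signal was under 50, and its signals of 28.8, 538.1, 307.8 and 18.8 put the rescue 28.6-fold under the mutant. The mutant and the rescue control were the high arrays for TotC.

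Basic machinery stood slightly above the overall median. Ribosomal protein genes, 31 bright of 36, had 1 higher and 0 lower, 29 above 0 and a median of 0.13. The higher one was RpL27, whose signal of 2596 in the mutant was under the 5857.7, 5912.6 and 6594.4 of the WT control, rescue control and rescue. Mitochondrial ribosomal genes, 71 of 71 bright, had 0 past 2-fold and a median of 0.07. Oxidative phosphorylation genes, 51 bright of 73, had 0 past 2-fold and a median of 0.09, and 16 more were below 14 in the mutant and bright in the rescue. Those included the paralogues COX4L, at 169.6, 0.9, 1.7 and 331.4, and ATPsynCF6L, at 86.1, 2.4, 1.5 and 166.9. Proteasome genes, 27 bright of 41, and vacuolar ATPase genes, 16 bright of 28, each had 0 of these past 2-fold, with medians of −0.05 and −0.02. Another 4 proteasome and 3 vacuolar ATPase genes were below 14 in the mutant and bright in the rescue, such as Vha68-3 at 92.2, 5.6, 2 and 168.8. That class held 7.42% of all probe sets with 1 symbol.

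Muscle genes, 19 bright of 22, had 3 higher, 1 lower and a median of −0.05. Beside Act88F, the higher ones were the troponin C gene TpnC41C at 2601.5, 520, 1583.4 and 1401.4 and the actin gene Act79B at 5142.3, 1354.8, 5121.9 and 3556.7. The mutant was the lowest array for both. The lower one was up, a troponin T gene, at 2625, 2224.5, 1946.3 and 1052.9. TpnC4, a flight muscle troponin C, was below 14 in the mutant at 4.8 and at 1053, 1661.9 and 568.7 on the WT control, rescue control and rescue. Odorant-binding genes, 17 bright of 51, had 2 higher, 3 lower and a median of −0.13, the lower ones being Obp57a, Obp56e and Obp83g. Of 166 odorant, gustatory and ionotropic receptor genes, 1 was bright, Ir76a, an ionotropic receptor gene, at −0.47.

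The yolk, sex determination and dosage compensation list had 13 bright of 16, with 0 higher, 2 lower and a median of −0.38. The lower ones were fru, a regulator of male courtship neurons, at 228.8, 307.3, 237.4 and 122.9, and msl-2, of the male dosage compensation complex, at 111.7, 148.7, 101 and 61.3. The yolk protein gene Yp1 had 3234.6, 4616.7, 17.6 and 4523.7. Yp2 gave 727.3, 2175.4, 14.8 and 1235.2, and Yp3 gave 2338.5, 1508.1, 133 and 2033.5. Yolk protein RNA was therefore high on 3 arrays and low in the rescue control, while 0 of 16 eggshell genes were bright. The labels name males only, and the sex of the flies was not checked against these signals.

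The genes below 14 in the mutant and at 50 or more in the neuronal rescue numbered 1013 probe sets, 7.42% of the 13646 with 1 symbol, whereas the reverse class had 10, or 0.0733%. Their folds are lower bounds against the floor of 14. The median signal of the 1013 was 62.7, 2.5, 4.7 and 112. They were at 50 or more in the WT control for 646 probe sets and in the rescue control for 43, and they were below 14 in the WT control for 14 and in the rescue control for 856. Membership itself fixes the rescue as bright and the mutant as below 14, so only the controls were free to differ. Of these, the WT control detected most of the class and the rescue control little of it. The class held 4.1%, 0.112%, 0.55% and 6.94% of the summed signal of all probe sets with 1 symbol. Genes known only by a CG or CR number made up 69% of it, against 32.2% of bright genes.

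Genes of the male reproductive tract were 4 of the 10 brightest named members in the rescue: EbpII, Ebp, Acp98AB and Mst57Da. The brightest, CG13947, was at 114.5, 2, 3.2 and 5421.7, at least 387-fold over the mutant. The ejaculatory bulb genes EbpII and Ebp were at 2800.9, 1.1, 6.1 and 3191.8 and at 3097.8, 9.2, 6.1 and 3032.8. The accessory gland gene Acp98AB was at 2911, 1, 4.2 and 3124.9, and the male-specific transcript Mst57Da at 1660.4, 1.3, 0.7 and 2166.6. For EbpII, Ebp, Acp98AB and Mst57Da the WT control and the rescue were at similar levels and the other arrays were under 14. CG17376, CG12699 and CG33340 were at least 205-fold, 162-fold and 160-fold over the mutant. CG16826 and whe, at least 332-fold and 289-fold over it, were also high in the rescue control, at 624.6 and 500.5.

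Of 37 testis genes, 22 were in the class, and 8, 33, 27 and 7 were below 14 on the arrays in turn. Mst77F, a sperm chromatin protein gene, was at 1101.6, 9.9, 14.2 and 2070, and betaTub85D, the testis tubulin, at 634.1, 5.2, 14.1 and 1136.7. Of 26 accessory gland, ejaculatory duct and bulb genes, 18 were in the class. The sex peptide gene SP was at 660.8, 5, 5.4 and 792.3. Another 3 were bright on both arrays and within 2-fold, namely Gld, Obp56g and EbpIII, the last at 7925, 7725.1, 7644.3 and 8165.1. The summed signal of the list was 30207, 10724, 8929 and 32278, highest on the arrays where the testis list was highest.

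Gut genes had another order of arrays. Of 32 protease, lysozyme and lipase genes, 10 were in the class, and the summed signal was 9160, 170, 2840 and 5052. The trypsin gene alphaTry was at 2347.1, 2.5, 541 and 1802.2. Jon65Aiii, a serine protease gene, was at 620.4, 0.6, 354.3 and 780.1. The mutant was the only array under 14 for alphaTry and Jon65Aiii. The protease gene yip7 had the same order at 726.4, 1.7, 383.8 and 1007.9. Of 10 maltase genes, which cut sugars in the gut, 2 were bright and 4 were in the class, among them Mal-A7 at 199.9, 5.2, 26.7 and 200.4. How far tissue in the preparation set these signals was not tested.

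**Figure D4:**
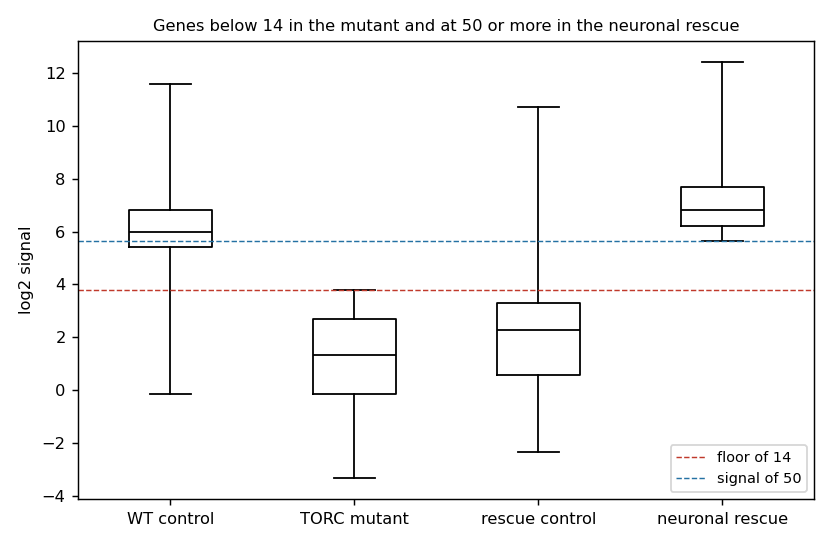
Log2 signal (y axis) on each of the 4 arrays for the 999 genes below 14 in the mutant and at 50 or more in the neuronal rescue. Boxes span the quartiles, the line in each box is the median and whiskers reach the lowest and highest gene; the WT control box lies near or above the line for 50, and the rescue control box lies below the floor of 14.

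A few members of the class were not on in the WT control. Among the 14 genes below 14 there, Srg2 was highest at 5.8, 1.8, 190.6 and 1632. The lysozyme gene LysX was at 6.7, 0.6, 138 and 202.4, and CG13324 at 7.2, 1.3, 218.3 and 117.6. Srg2, LysX and CG13324 were detected in the rescue control and the rescue and on neither of the other arrays. Nazo, an antiviral effector gene, was at 9.1, 5.6, 44.6 and 126.7. The juvenile hormone methyltransferase gene jhamt was at 13.3, 1.5, 6.1 and 62.7, and 5 probe sets in all were below 14 on every array but the rescue.

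The 10 probe sets below 14 in the rescue and bright in the mutant were all dim. The highest in the mutant was Obp83b, an antennal odorant-binding gene, at 186.7, 81.5, 69.7 and 11.5, at least 5.82-fold lower in the rescue. A probe set for pyd, a junction scaffold gene, was at 51.8, 70.8, 23.3 and 9.4. Other pyd probe sets were bright and gave −2.10, −0.90, −0.64 and −0.23, the brightest of them at 545.4, 814.8, 661.2 and 522.3 and so within 2-fold. A probe set for eys, a matrix gene of the eye, was at 54.2, 66.2, 15 and 13.6, while another eys probe set was bright at −0.81. A further eys probe set, just above the floor in the rescue, was at 83.9, 89.8, 13.1 and 16.3 (−2.46). CG13130, Cdep, CG34398, Mid1, CG34354, CG8925 and side-II had mutant signals between 50.3 and 61.1, so they stood close to the limit of 50. Cdep and CG34398 also had bright probe sets, at −0.51 and −0.75.

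Membership of the classes turned on small differences at the limits. Just inside 50 stood rig at 82 in the mutant and 50 in the rescue, and BOD1 at 50 and 54.4, and just outside stood CG15643 at 80.6 and 49.9 and Cyp9c1 at 49.9 and 76.5. Between the limits, 138 of the 294 probe sets at 14 to 50 in the mutant (46.9%) were 2-fold or more higher in the rescue, and 144 of the 444 at 14 to 50 in the rescue (32.4%) were 2-fold or more lower. Chosen after values were seen, CG18628 had the largest ratio of the former at 2674.7, 15.6, 27.6 and 5635.4, and TotC that of the latter. In all, 383 bright probe sets had their lower signal under 60. At the floor, CG9864 was counted as absent in the mutant at 13.9 and CG31459 was not at 14, with rescue signals of 96.3 and 224.7. Of the 1013, 78 had a mutant signal of 10 or more and 672 were under 5.

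The ratio of the WT control over the rescue control shares no array with the ratio of rescue over mutant. Over the 5796 genes at 50 or more on all 4 arrays, the WT control was 2-fold or more over the rescue control for 1.6% and under it for 2.29%. Across these genes the ratios had a Pearson r of 0.13 and a Spearman rho of 0.10. The points share array pairs, and genes are not independent replicates. Of the 86 of these genes that were 2-fold higher in the rescue, 18 had the WT control 2-fold over the rescue control, which is 20.9% of the 86 and 19.4% of the 93 genes of that kind, and 10 had it under. Of the 189 lower, 14 had it under, 7.41% of the 189 and 10.5% of the 133, and 9 had it over. Cyp4g1, path, Rab3-GAP, bol, cnc and Sardh were among the 18, and Cyp6a2, Lsd-1, Gnmt, fit and CG13056 among the 14.

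**Figure D5:**
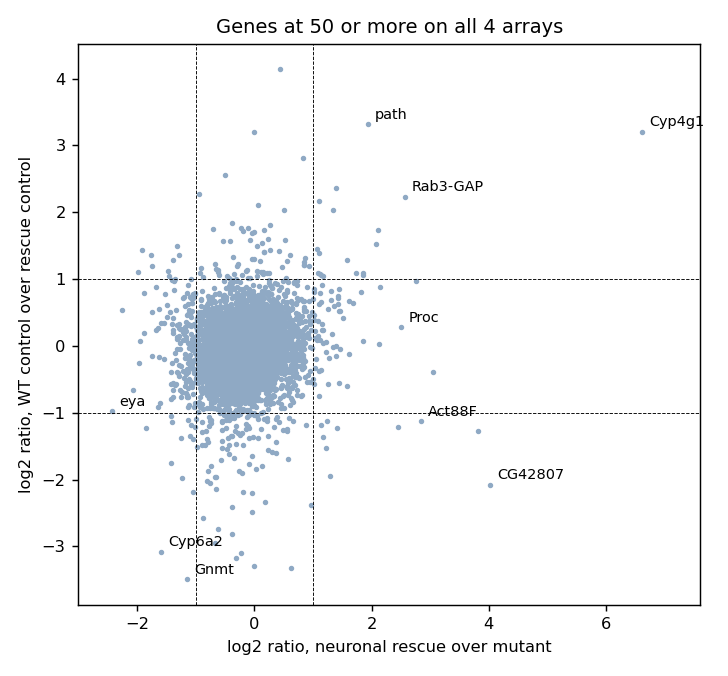
Log2 ratio of neuronal rescue over mutant (x axis) against the log2 ratio of WT control over rescue control (y axis) for the 5796 genes at 50 or more on all 4 arrays, 1 point a gene, with dashed lines at 2-fold. Most points form a cloud without slope (r of 0.13), 18 genes lie past 2-fold at upper right, led by Cyp4g1, and 14 at lower left, including Gnmt and Cyp6a2.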

How the data were processed

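RNA from 4 samples was hybridised to Affymetrix arrays, 1 per group, and groups were taken from the titles. The deposited table holds 1 linear intensity per probe set and array. MAS5 is the tool that the submitters' processing notes name; its version is not given in the sources used here. Signals were floored at 14, and log2 ratios, limits and calls were computed in Python 3.11.15 with numpy and pandas. Gene symbols came from the platform annotation; 13543 of 13646 probe sets matched a RefSeq gene of Release 6 and 0 symbols changed. That table's gene order gave the neighbours of Crtc; no coordinates are printed, since the array's build is not named. The genes named were Crtc, the 15 highest and 15 lowest bright ratios, the 10 brightest genes absent on 1 array, the 5 largest ratios of each of 40 gene lists, and genes at the limits; further list members were named to show values within 2-fold. Members and lists were chosen with earlier results of these data known, and list entries that had matched genes outside a list's subject were removed after values had been seen. Listed names that were not matched to a measured gene are outside the list counts, among them 11 photoreceptor, 9 synaptic and 20 antimicrobial names. The number of arrays limits the precision. Alternatives covered normalization, centring, limits, fold threshold and probe set choice.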

Additional observations from a re-analysis of the deposited data

Results flagged for a closer look

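Among 5123 probe sets that the annotation pairs with several symbols or none, 70 were at 50 or more in the neuronal rescue and below 14 in the mutant, a signal in data that the comparison leaves out. Of these, 48 were at 50 or more in the WT control and 50 were below 14 in the rescue control. A control probe set with no gene name in the annotation had a signal of 26.6 in the neuronal rescue, above the 1.2 of the WT control and the mutant's 6.8, and under the 53.8 of the rescue control.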

How the results depend on the processing

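The bright probe sets numbered 93 higher and 227 lower in the rescue. The higher count was 308 after centring on head lists, 161 and 45 at signal minimums of 25 and 100, and 318 and 26 at 1.5-fold and 3-fold. The lower count was 132 and 54 after centring on the bright median and on head lists, 147 at a minimum of 100, and 976 and 34 at 1.5-fold and 3-fold. The median log2 ratio of bright probe sets was −0.16, and 0.25 after centring on head lists. Those centred counts follow from the added shift. The class absent in the mutant, 1013 probe sets, had 1523 and 564 at minimums of 25 and 100. The class absent in the rescue, 10 probe sets, had 54 under quantile normalization, 102 and 0 at minimums of 25 and 100, and 0 and 76 with floors of 7 and 28; the cause was not tested for the first of these. Of 191 named genes, 10 changed sign after centring on head lists and 1 under quantile normalization, all within 2-fold; 12 and 26 dropped below 2-fold under the centrings, 6 under quantile normalization, 6 with the mean over probe sets, Crtc with a floor of 28, and 1 (gpp) without probe sets that may hit several transcripts. Of 33 list medians, 12, 22 and 5 changed sign under the centrings and quantile normalization. Leaving out those probe sets, chosen after seeing the data, gave 79 higher and 191 lower. Centring leaves absence calls as they are and was not run on them. The search of promoters for CREB sites was not run. No paired analysis was possible because each group has 1 array.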
